A study of Mus musculus with 24 samples.

Results

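A set of 10 negative regulators of ERK and EGFR signalling was followed through mouse intestinal organoids that carried inducible BRAFV600E, inducible p53R172H or both. Its members were listed by symbol for what the proteins do, with earlier results of these data known. They were the MAP kinase phosphatases Dusp4, Dusp5 and Dusp6, the Sprouty genes Spry1, Spry2 and Spry4, the Spred genes Spred1, Spred2 and Spred3, and Errfi1. All 10 were present among the 45706 gene identifiers of the RNA-seq count tables, and all 10 passed the filter on low counts that edgeR's filterByExpr applied to each tissue, to the 24 libraries and to the off cultures. The organoids came from the small intestine (SI) and the colon (COL) of C57BL/6N mice in which Villin::CreERT2, a recombinase restricted to intestinal epithelium and active only with 4-hydroxytamoxifen (4-HT), was combined with the BraffloxV600E/+ allele (BRAF), the Trp53LSL-R172H/+ allele (p53) or both (BRAFp53). Each genotype was 1 culture in each tissue, giving 6 cultures. Every culture gave 2 induced libraries (on) and 2 libraries of organoids that received ethanol (off), so that 24 libraries formed 12 groups. COL organoids received 3.5 µM 4-HT and RNA was taken on day 3, whereas SI organoids received 0.5 µM and RNA was taken on day 8, in both cases after 24 h of exposure. By the paper's methods, the medium of colonic cultures also held Wnt3a and an inhibitor of the kinase GSK3. Tissue, medium, dose and day therefore cannot be told apart, and because each genotype was 1 culture, neither can genotype and donor. The off libraries carried the same uninduced alleles and the same Cre as the on libraries of their culture.

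ERK is the last kinase of the receptor-RAS-RAF-MEK-ERK cascade, and it induces several of its own inhibitors. Dual-specificity phosphatases remove the activating phosphates from MAP kinases: Dusp6 acts on ERK in the cytoplasm, whereas Dusp5 and Dusp4 reside in the nucleus. Sprouty and Spred proteins share a cysteine-rich domain and act between the receptor and RAF, with Spred proteins bringing the RAS inactivator neurofibromin to the membrane. Errfi1, also called Mig6, binds the kinase domain of EGFR and blocks it. In intestinal epithelium, EGF signalling supports growth of the crypt and ERK activity is kept in check by these inhibitors. BRAFV600E signals without need of upstream RAS.

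The stretches before the transcription starts of 4 genes are shown because Dusp5, Dusp6 and Errfi1 rose in every BRAF-bearing group whereas Spry2 passed the test in none. RefSeq start windows of 300 bases (250 before the start and 50 after it, build GRCm38.p6) were searched for 8 members, 9 windows in all. Spry4, which also rose in every BRAF-bearing group, was left out of the search, and no window was matched for Dusp4. Both strands were searched for 5 motifs: the cyclic AMP response element TGACGTCA, the AP-1 site TGANTCA, the ETS core GGAA, the longer ETS site CCGGAA, which contains GGAA, and the CArG box of serum response factor. Capitals mark the matches; TTCC is GGAA on the other strand.
Dusp5, chr19:53528895-53529108 (+), ending 36 bases before the RefSeq start, with 2 CArG boxes next to each other: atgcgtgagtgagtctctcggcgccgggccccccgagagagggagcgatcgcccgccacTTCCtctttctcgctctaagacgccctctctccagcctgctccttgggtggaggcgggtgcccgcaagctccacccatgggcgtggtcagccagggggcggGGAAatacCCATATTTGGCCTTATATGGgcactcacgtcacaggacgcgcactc
Dusp6, chr10:99262981-99263230 (+), with 6 GGAA cores: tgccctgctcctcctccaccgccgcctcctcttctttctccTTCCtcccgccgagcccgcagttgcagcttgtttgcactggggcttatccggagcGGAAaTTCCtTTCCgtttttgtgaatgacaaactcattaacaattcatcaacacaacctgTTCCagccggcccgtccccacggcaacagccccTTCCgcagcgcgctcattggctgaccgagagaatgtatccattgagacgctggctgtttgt
Errfi1, chr4:150854820-150855069 (+), before the later of its 2 RefSeq starts and inside the span of the gene, with 1 cyclic AMP response element: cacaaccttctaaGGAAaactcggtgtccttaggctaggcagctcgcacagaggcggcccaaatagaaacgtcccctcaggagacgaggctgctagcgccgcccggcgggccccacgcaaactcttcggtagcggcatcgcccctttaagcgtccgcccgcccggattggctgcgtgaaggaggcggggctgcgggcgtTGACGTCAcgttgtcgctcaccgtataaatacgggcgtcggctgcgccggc
Spry2, chr14:105896820-105897069 (-), with 3 GGAA cores: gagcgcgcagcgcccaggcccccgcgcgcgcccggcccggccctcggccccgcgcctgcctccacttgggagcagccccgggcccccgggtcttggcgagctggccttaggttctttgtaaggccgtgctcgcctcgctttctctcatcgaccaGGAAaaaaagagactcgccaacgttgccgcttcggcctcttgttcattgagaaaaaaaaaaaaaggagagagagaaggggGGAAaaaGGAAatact
The 2 CArG boxes of Dusp5 begin 82 and 72 bases before the RefSeq start; 1 of the 9 member windows held this motif, against 1.63% of all 32851 windows. The response element of Errfi1 begins 51 bases before the start and was in 1 member window, against 1.79% of all windows. GGAA was in 9 of 9 member windows and in 96.0% of all windows, a share near that of the members. CCGGAA was in 1 member window (Spry2, outside the printed stretch) against 14.9% of all, and TGANTCA was in 0 of 9 against 7.81%. These matches describe letters only.

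Depth was 51174821 to 78175143 counts in COL libraries and 44350747 to 68214835 counts in SI libraries. The 6 markers of intestinal epithelium were above the floor of 3 counts per library in every group, and the 11 markers of stroma, endothelium and immune cells summed to between 0.271 and 2.52 CPM (counts in each 1000000 of a library). The SI and COL cultures of 1 genotype need not share a donor: the Y-linked gene Ddx3y was at 45.9 to 64.8 CPM in all COL libraries, whereas SI p53 and SI BRAFp53 libraries had at most 0.065 CPM of it. Cultures also stood apart in other ways. The COL BRAF culture carried the small-intestinal factor Gata4 at 32.1 to 49.4 CPM, whereas the other COL libraries had 0.293 to 2.67 CPM, and its 5 colon markers summed to 1357 to 1378 CPM off and 3178 to 4978 CPM on, against 3514 to 18072 CPM in the other COL libraries. Nearly all of that sum was Car1, a carbonic anhydrase, at 1328 and 1347 CPM in COL BRAF off libraries and 4948 and 3146 CPM in on libraries, and 1 to 3 of the 5 markers were at or under 3 counts per library in each COL group. In the SI BRAF culture, whose libraries expressed Ddx3y at 32.8 to 40.3 CPM, on replicate 1 held 17.1 CPM of Xist, the RNA of the inactive X chromosome, while its other libraries had 0.234 to 0.471 CPM and SI p53 and SI BRAFp53 libraries 115 to 166 CPM. Whether that library holds material of another culture was not tested. Its level of the stem cell gene Olfm4 was 87.4 CPM, against 10.3 CPM in on replicate 2. Several values of the SI BRAF comparison are therefore also given without that library. Counts over whole genes cannot separate mutant from wild-type transcripts: Braf was at 26.5 and 27.4 CPM in COL BRAF off and 37.9 and 35.3 CPM in COL BRAF on libraries, and Trp53 was at 199 and 219.7 CPM in COL p53 off and 406 and 412 CPM in COL p53 on libraries.

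Between 4 and 7 of the 10 regulators were higher after induction of BRAFV600E, with an adjusted p under 0.05 from edgeR's quasi-likelihood test counted as called. The members were chosen with earlier results of these data known. The paper names Dusp4, Dusp5, Dusp6, Spry4 and Errfi1 as induced by BRAFV600E in the same data. The counts beside the shares are therefore no independent support for the set. In COL BRAF organoids 7 members rose, whereas 10.3% of all genes tested were called higher. In COL BRAFp53 organoids 6 rose against 9.95% of all genes. In SI BRAF organoids 4 rose against 17.5%, and in SI BRAFp53 organoids 7 rose against 6.98%. In SI BRAF 3 were called when on replicate 1 was left out. Dusp5, Dusp6, Spry4 and Errfi1 were called in all 4 comparisons. The median log2 fold change of the 10 members was 1.28 in COL BRAF, 1.08 in COL BRAFp53, 0.40 in SI BRAF and 1.13 in SI BRAFp53, beside medians over all genes of -0.01, -0.04, -0.06 and -0.03. The SI BRAF median was 0.81 without on replicate 1, but both SI BRAF medians rest on the fitted value of Spred3, which had 1 to 7 counts per library there. Over the other 9 members the medians were 1.26, 1.10, 0.20 and 1.36, and the SI BRAF value was 0.38 without on replicate 1. Both on libraries lay above both off libraries for 9 members in COL BRAF, where 29.5% of all genes did so. The same held for 6 members in COL BRAFp53 (27.5% of all genes), for 5 in SI BRAF (32.1%) and for 10 in SI BRAFp53 (29%). Because the 2 libraries of a group came from 1 culture, p-values measure the spread between libraries of a culture, which may be technical.

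**Figure D1:**
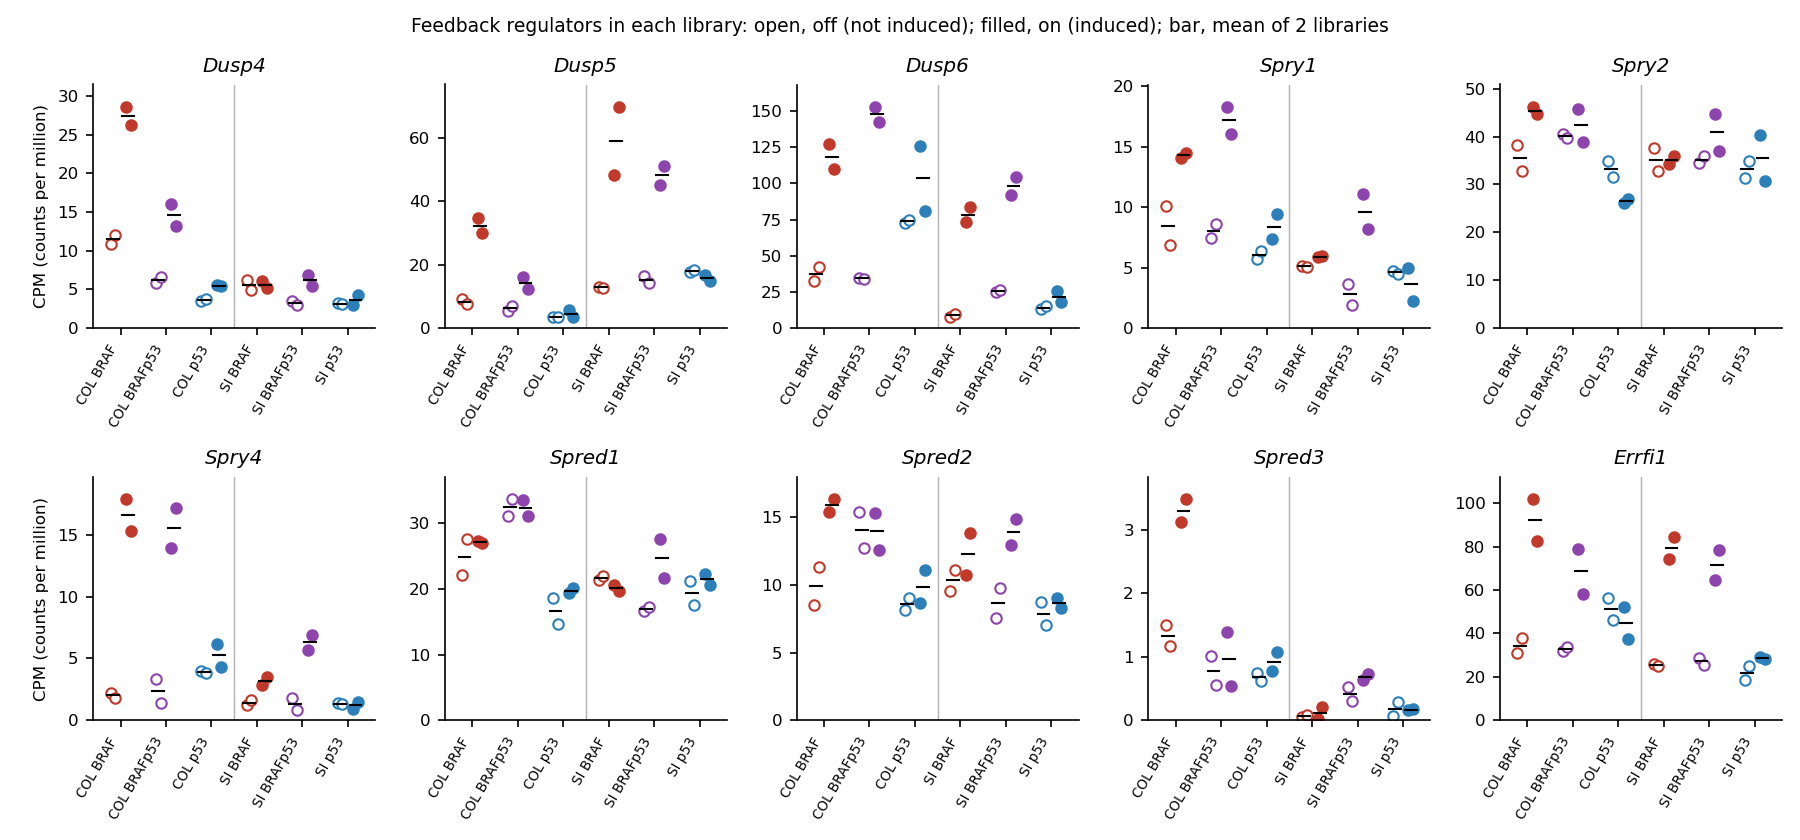
Level of each of the 10 regulators in every library (CPM, one scale over 24 libraries), with open points for off, filled points for on and a bar for the mean of 2 libraries; COL cultures are left of the grey line and SI cultures right of it. Dusp6 lies at 73.2 CPM or more in all 8 on libraries of the BRAF-bearing cultures, and Spry2 stays between 26.2 and 46.3 CPM in all 24 libraries.

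Among the phosphatases, Dusp6 (chr10:99263231-99267489, + strand) had the largest change of any member in SI BRAF organoids. Its level in COL BRAF organoids was 32.7 and 42.1 CPM in the off libraries and 127 and 109.8 CPM in the on libraries. COL BRAFp53 organoids went from 34.9 and 33.7 CPM to 153 and 143 CPM. SI BRAF organoids went from 7.87 and 9.81 CPM to 73.2 and 83.7 CPM. In none of these groups did on and off libraries overlap. SI BRAFp53 organoids, which had 25.0 and 26.3 CPM when off, reached 92.1 and 104.7 CPM when on. The log2 fold change was 1.66 ± 0.19 (SE) in COL BRAF (3.15-fold, adjusted p = 0.000176), 2.11 ± 0.19 in COL BRAFp53 (4.32-fold, adjusted p = 5.74e-05), 3.10 ± 0.18 in SI BRAF (8.56-fold, adjusted p = 9.78e-08) and 1.90 ± 0.17 in SI BRAFp53 (3.74-fold, adjusted p = 1.05e-05). The SI BRAF value was 3.20 without on replicate 1. In the order of the 12 groups, the 4 induced BRAF-bearing groups and COL p53 on took the 5 highest places, and the range of libraries overlapped that of the next group in 5 of the 11 neighbouring pairs.

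Dusp5 (chr19:53529109-53542431, + strand), the nuclear ERK phosphatase, was highest in SI. Its level rose from 13.01 and 12.7 CPM to 48.1 and 69.8 CPM in SI BRAF and from 16.4 and 14.2 CPM to 45.2 and 51.2 CPM in SI BRAFp53. The off and on libraries were apart in both. COL BRAF organoids went from 9.06 and 7.56 CPM to 34.6 and 29.8 CPM, and COL BRAFp53 organoids from 5.34 and 7.10 CPM to 16.2 and 12.3 CPM. The log2 fold change was 2.15 ± 0.17 in SI BRAF (4.44-fold, adjusted p = 1.16e-06), 1.62 ± 0.17 in SI BRAFp53 (3.08-fold, adjusted p = 3.11e-05), 1.95 ± 0.25 in COL BRAF (3.87-fold, adjusted p = 0.000297) and 1.20 ± 0.25 in COL BRAFp53 (2.29-fold, adjusted p = 0.00606). Without SI BRAF on replicate 1, the lower of the 2 on libraries, the SI BRAF log2 fold change was 2.40. Leaving out COL BRAFp53 on replicate 1 gave 0.99 with an adjusted p of 0.0522 in that culture. The exons of Dusp5 share 547 bases with an antisense gene, AC137853.2, and since the strand setting of the counting is not given in the sources used here, reads of the 2 genes cannot be told apart.

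Dusp4 (chr8:34807297-34819894, + strand), a nuclear phosphatase that also acts on other MAP kinases, followed another order. COL BRAF libraries had 10.9 and 11.999 CPM off and 28.7 and 26.3 CPM on, and COL BRAFp53 libraries 5.82 and 6.64 CPM off and 16.04 and 13.2 CPM on. SI BRAF libraries had 6.18 and 4.91 CPM off and 6.08 and 5.12 CPM on. The SI BRAF groups overlapped fully, unlike the COL groups. In SI BRAFp53 organoids the level was 3.46 and 2.94 CPM off and 6.83 and 5.47 CPM on. Dusp4 rose 2.39-fold in COL BRAF (log2 1.26 ± 0.16, adjusted p = 0.000361), 2.35-fold in COL BRAFp53 (1.23 ± 0.17, adjusted p = 0.000555) and 1.87-fold in SI BRAFp53 (0.90 ± 0.25, adjusted p = 0.0340). Its log2 fold change in SI BRAF was -0.02 ± 0.25, with a 95% interval of -0.56 to 0.51, and -0.15 without on replicate 1. The SI BRAFp53 call was lost when any of the 4 libraries of the culture was left out, with adjusted p values of 0.180 and 0.0713 without on replicates 1 and 2 and 0.102 and 0.200 without off replicates 1 and 2.

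The Sprouty genes, which restrain RAS and RAF activation below receptor tyrosine kinases, differed in how many comparisons called them: Spry4 in 4, Spry1 in 3 and Spry2 in none. Spry4 was at 2.20 and 1.82 CPM in COL BRAF off libraries and 17.9 and 15.3 CPM in on libraries. COL BRAFp53 libraries had 3.32 and 1.40 CPM off and 14.0 and 17.1 CPM on. SI libraries had 1.20 and 1.66 CPM off and 2.87 and 3.48 CPM on in SI BRAF, and 1.78 and 0.813 CPM off and 5.70 and 6.90 CPM on in SI BRAFp53. On and off libraries were apart in all 4 comparisons. Spry4 rose 8.21-fold in COL BRAF (log2 3.04 ± 0.35, adjusted p = 0.000150), 6.60-fold in COL BRAFp53 (2.72 ± 0.34, adjusted p = 0.000319) and 4.75-fold in SI BRAFp53 (2.25 ± 0.38, adjusted p = 0.00189). The SI BRAF change was 2.13-fold (1.09 ± 0.38, adjusted p = 0.0427). That call was lost when any library of the culture was left out: the adjusted p was 0.0522 (log2 1.24) and 0.162 (0.96) without on replicates 1 and 2, and 0.208 and 0.0700 without off replicates 1 and 2. It was also lost in a fit of the 4 libraries of the culture alone (adjusted p = 0.0558).

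Spry1 (chr3:37639947-37644598, + strand) rose in COL BRAF from 10.1 and 6.87 CPM to 14.1 and 14.5 CPM, in COL BRAFp53 from 7.47 and 8.63 CPM to 18.3 and 16.1 CPM and in SI BRAFp53 from 3.67 and 1.90 CPM to 11.1 and 8.18 CPM. The on libraries lay above the off libraries in each. The folds were 1.68 (log2 0.75 ± 0.21, adjusted p = 0.0228), 2.14 (1.10 ± 0.21, adjusted p = 0.00368) and 3.37 (1.75 ± 0.36, adjusted p = 0.00593). In SI BRAF organoids Spry1 was at 5.12 and 5.08 CPM off and 5.88 and 5.97 CPM on, a log2 difference of 0.17 ± 0.35 that did not pass the test (adjusted p = 0.754) and was 0.19 without on replicate 1. Of the calls, COL BRAF was lost without on replicate 1 (adjusted p = 0.0916), on replicate 2 (0.105) or off replicate 2 (0.199), and SI BRAFp53 without off replicate 2, the lowest library (log2 1.37, adjusted p = 0.0670). Spry1 exons share 710 bases with Gm42922 on the opposite strand, so its counts are uncertain to that extent.

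Spry2 (chr14:105891947-105896819, - strand) had the narrowest span of group means among the 10, although not the smallest change in each comparison. Its 12 group means lay between 26.6 and 45.4 CPM, a span of 1.71-fold, and the libraries of neighbouring groups in that order overlapped in 9 of 11 pairs. The log2 fold change was 0.35 ± 0.13 in COL BRAF (adjusted p = 0.0706), 0.08 ± 0.13 in COL BRAFp53, -0.05 ± 0.15 in SI BRAF and 0.18 ± 0.14 in SI BRAFp53. The 95% intervals were 0.08 to 0.63, -0.20 to 0.35, -0.37 to 0.26 and -0.13 to 0.49, so rises of more than 1.54-fold lay outside all 4. The SI BRAF value became -0.013 when on replicate 1 was left out. DESeq2 called the COL BRAF change (adjusted p = 0.0370), as did edgeR when 10 counts in every library were required (0.0435).

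The Spred genes, which bring neurofibromin to RAS, showed small or uncertain changes. Spred2 (chr11:19924375-20024026, + strand) had 8.54 and 11.3 CPM in COL BRAF off and 15.4 and 16.4 CPM in on libraries, a 1.59-fold rise (log2 0.67 ± 0.20, adjusted p = 0.0323). That call was lost without on replicate 1 (adjusted p = 0.101), on replicate 2 (0.143) or off replicate 1 (0.240). In COL BRAFp53 Spred2 was at 15.4 and 12.7 CPM off and 15.3 and 12.6 CPM on, so the groups overlapped there. SI BRAFp53 libraries went from 7.56 and 9.78 CPM to 12.985 and 14.8 CPM. The change was 0.64 ± 0.20 on the log2 scale, just outside the threshold (adjusted p = 0.0547), and was called under all 7 alternatives that kept every library (adjusted p = 0.0195 to 0.0481). Spred1 (chr2:117121374-117182279, + strand) stood at 16.6 and 17.2 CPM in SI BRAFp53 off and 27.6 and 21.6 CPM in on libraries, a 1.42-fold rise (log2 0.51 ± 0.15, adjusted p = 0.0490). Without on replicate 1 the log2 value was 0.33 (adjusted p = 0.331), and without off replicates 1 and 2 the adjusted p was 0.223 and 0.157; a fit of the 4 libraries alone gave 0.0554. In the other BRAF-bearing groups Spred1 did not pass the test, with ratios of on to off of 1.09 in COL BRAF, 0.999 in COL BRAFp53 and 0.903 in SI BRAF. Without SI BRAF on replicate 1, the SI BRAF log2 values were -0.18 for Spred1 and 0.38 for Spred2, beside -0.15 and 0.20 with it.

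Spred3 (chr7:29158829-29170411, - strand) was the least expressed member. COL BRAF libraries had 1.4999 and 1.17 CPM off and 3.12 and 3.49 CPM on. These did not overlap, and the log2 fold change of 1.30 ± 0.48 had an adjusted p of 0.0788 by edgeR, 0.0473 by DESeq2 and 0.0345 by limma-voom. In SI BRAF organoids it was counted 2 and 5 times in the off libraries and 1 and 7 times in the on libraries, at about the floor of 3 counts, so no fold is reported for it as a result. Spred3 exons share 202 bases with Ggn on the opposite strand.

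Errfi1 (chr4:150853919-150868892, + strand), the EGFR inhibitor, rose in all 4 BRAF-bearing comparisons. It went from 31.0 and 37.7 CPM to 102 and 82.6 CPM in COL BRAF and from 32.1 and 33.8 CPM to 78.9 and 58.3 CPM in COL BRAFp53. In SI it went from 26.0 and 24.8 CPM to 74.4 and 84.3 CPM in SI BRAF and from 28.8 and 25.4 CPM to 64.6 and 78.4 CPM in SI BRAFp53. No on library overlapped an off library of its culture, and all 8 on libraries lay between 58.3 and 102 CPM. The folds were 2.68 (log2 1.42 ± 0.20, adjusted p = 0.000618), 2.09 (1.06 ± 0.20, adjusted p = 0.00400), 3.02 (1.60 ± 0.15, adjusted p = 6.27e-06) and 2.57 (1.36 ± 0.15, adjusted p = 6.69e-05). The SI BRAF log2 value was 1.69 without on replicate 1. Each Errfi1 call held when any single library of its culture was left out.

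**Figure D2:**
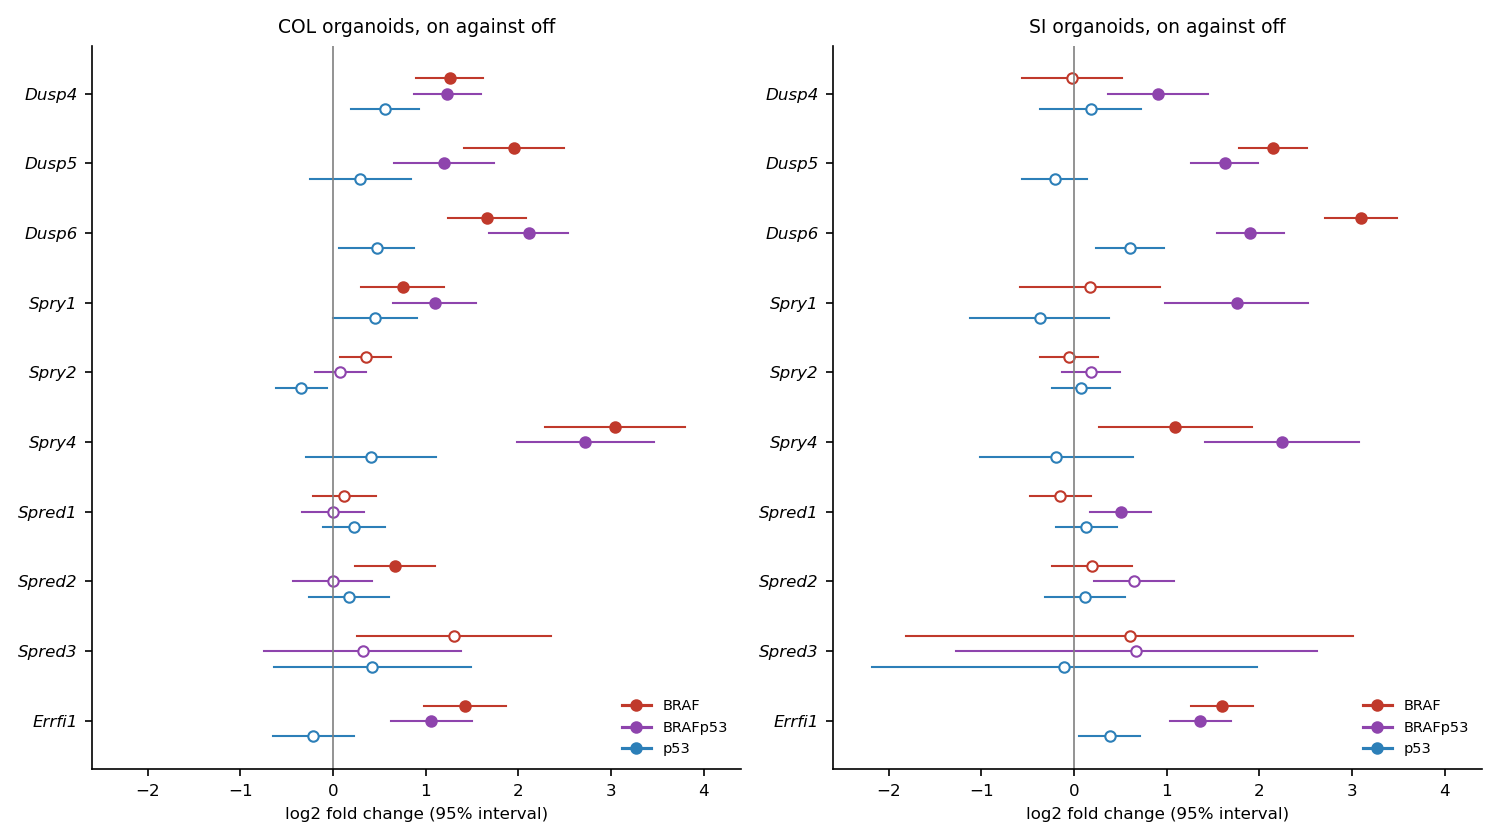
Change of each regulator between on and off libraries (log2 fold change with 95% interval) in COL organoids, left, and SI organoids, right, by genotype; filled points have an adjusted p under 0.05. Dusp5, Dusp6, Spry4 and Errfi1 are filled for BRAF and BRAFp53 in both panels, and no p53 point is filled.

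Sums of other cell markers moved between the same libraries. A sum follows its most abundant genes and does not show that each marker moved. The 5 stem cell markers together were lower in the on libraries, at 101 to 141 CPM against 307 to 380.1 CPM off in COL BRAF, 138 to 189.8 CPM against 466 to 582 CPM in COL BRAFp53, 53.6 CPM (on replicate 2) and 157 CPM (on replicate 1) against 387 to 417 CPM in SI BRAF and 218 to 252 CPM against 318 to 436 CPM in SI BRAFp53. The 6 enterocyte markers together were higher when on, at 2052 to 2315 CPM against 1260.0 to 1339 CPM in COL BRAF, 1653 to 2620.2 CPM against 1213 to 1500 CPM in COL BRAFp53, 41415 to 45360 CPM against 8775 to 11675 CPM in SI BRAF and 28313 to 29535 CPM against 18320 to 22017 CPM in SI BRAFp53. The 5 goblet markers together were also higher when on, at 1615 to 1827 CPM against 938 to 1034 CPM in COL BRAF, 1610.3 to 1879 CPM against 844 to 1007 CPM in COL BRAFp53, 763 to 1001 CPM against 656 to 664 CPM in SI BRAF and 899 to 1087 CPM against 405 to 415 CPM in SI BRAFp53. The 4 enteroendocrine markers were higher when on in COL BRAF (375 to 428 CPM against 158 to 247 CPM), COL BRAFp53 (345 to 406 CPM against 160.2 to 187 CPM) and SI BRAFp53 (233 to 255 CPM against 166 to 195 CPM), and overlapped in SI BRAF (74.7 to 146 CPM against 58.4 to 87.0 CPM). The 6 Paneth markers together were lower when on in SI BRAF (210.0 to 239.8 CPM against 594 to 602 CPM) and COL BRAFp53 (1351 to 1549.6 CPM against 1550.5 to 2173 CPM) and higher in SI BRAFp53 (299 to 432 CPM against 222 to 276 CPM), and the 3 tuft markers were lower in SI BRAF (1.17 to 3.63 CPM against 10.05 to 10.4 CPM), SI BRAFp53 (5.41 to 5.88 CPM against 7.22 to 10.4 CPM) and COL BRAFp53 (16.2 to 18.2 CPM against 26.5 to 33.5 CPM). The Paneth sum was higher in COL libraries (804 to 2642 CPM) than in SI libraries (190 to 602 CPM), so in COL it is not read as Paneth cells. Lyz1 belongs to both the Paneth and the small-intestine set. The 6 markers of intestinal epithelium were higher when on in all 4, at 19347 to 21033 CPM against 8300.3 to 8895 CPM in COL BRAF, 20022 to 25031 CPM against 8499.5 to 8849 CPM in COL BRAFp53, 15971 to 18317 CPM against 9265 to 9382 CPM in SI BRAF and 12272 to 12559 CPM against 8177 to 8767 CPM in SI BRAFp53. The 6 small-intestine markers together were higher when on in SI BRAF (8755 to 10518 CPM against 3139.9 to 4059 CPM) and SI BRAFp53 (5441 to 5457 CPM against 3579 to 3894 CPM), and lower in COL BRAF (545 to 609 CPM against 767 to 797 CPM) and COL BRAFp53 (806 to 925 CPM against 1027 to 1444 CPM). Gata4, 1 of these 6, was at 83.0 and 80.1 CPM off and 91.5 and 82.6 CPM on in SI BRAF. The 5 colon markers together were higher when on in COL BRAF (3178 to 4978 CPM against 1357 to 1378 CPM) and COL BRAFp53 (5349 to 9629.5 CPM against 3514 to 4349 CPM), and summed to at most 11.6 CPM in SI libraries. The mitochondrial share of counts was 6.51% and 8.84% off against 2.86% and 2.58% on in COL BRAFp53, 6.46% and 7.39% off against 3.58% and 3.94% on in SI BRAF, 4.37% and 5.92% off against 3.64% and 3.73% on in SI BRAFp53, and 5.54% and 8.14% off against 6.74% and 8.36% on in COL BRAF. The share of counts in ribosomal protein genes was 9.42% and 9.15% off against 7.66% and 8.10% on in COL BRAF, 8.04% and 8.02% off against 7.18% and 7.61% on in COL BRAFp53, 8.76% and 8.22% off against 5.11% and 4.37% on in SI BRAF, and 7.14% and 7.53% off against 6.04% and 5.80% on in SI BRAFp53. Outside the colon set, 1 small-intestine marker in COL BRAFp53 on was at or under the floor of 3 counts per library. In bulk RNA, a change in the share of a cell type and a change in RNA per cell cannot be told apart. The part of these markers and of the mitochondrial and ribosomal shares in the changes of the regulators was not tested.

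After induction of p53R172H alone, no member passed the test. In COL p53 organoids, where 0.142% of all genes were called, edgeR called 0 of 10 members, and so did DESeq2 and limma-voom. By edgeR 4 (Dusp4, Dusp6, Spry1 and Spry2) had an unadjusted p under 0.05, as had 1583 of 18972 genes. Dusp6 was at 72.9 and 74.9 CPM off and 126 and 81.1 CPM on (log2 0.47 ± 0.19, adjusted p = 0.507), and Dusp4 at 3.55 and 3.80 CPM off and 5.54 and 5.45 CPM on (0.56 ± 0.17, adjusted p = 0.307). The on replicates of Dusp6 differed from each other by more than the lower one differed from the off libraries. Errfi1 (log2 -0.21) and Spry2 were lower when on, and Spry2 was the member whose on libraries both lay below the off libraries, at 35.0 and 31.5 CPM off and 26.2 and 27.0 CPM on (-0.35 ± 0.13, adjusted p = 0.441). For 6 members both on libraries were above both off libraries, where 21.3% of all genes were. In SI p53 organoids edgeR called 0% of all genes and 0 of 10 members (873 genes, Dusp6 and Errfi1 among them, had an unadjusted p under 0.05), DESeq2 called 65 genes and limma-voom 1, and neither called a member. Dusp6 was at 12.9 and 15.3 CPM off and 25.3 and 18.2 CPM on (log2 0.60 ± 0.17, adjusted p = 0.541), and Errfi1 at 18.4 and 25.2 CPM off and 29.3 and 28.4 CPM on (0.39 ± 0.15, adjusted p = 0.858). With 2 members (19.8% of all genes) both SI p53 on libraries were above both off libraries. Without a filter on low counts, Dusp6 was called in both tissues, with an adjusted p of 0.0499 in COL and 0.0197 in SI.

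Whether the added p53R172H altered the response to BRAFV600E was tested as a difference of log2 fold changes, which is also a difference between 2 cultures. In SI these 2 cultures also differed in Ddx3y and Xist, as given above. In COL 0 of 10 members differed by edgeR, DESeq2 or limma-voom, where edgeR called 0.907% of all genes. Dusp5 (-0.75) and Spred2 (-0.68) had an unadjusted p under 0.05, as had 3596 of 18972 genes. In SI edgeR called 1 member, Dusp6, where 8.2% of all genes were called. DESeq2 called 3 (Dusp6, Spry1 and Spred1; 2108 of 16856 genes) and limma-voom 2 (Dusp6 and Spry1; 1436 of 16856 genes). By edgeR 6 had an unadjusted p under 0.05, as had 3793 of 16856 genes: Dusp6, Spry1 and Spred1 with Dusp4 (0.93), Dusp5 (-0.53) and Spry4 (1.15). Spred1 differed by 0.65 (adjusted p = 0.0859; 0.0465 by DESeq2). The response of Dusp6 was smaller in BRAFp53 than in BRAF by 1.20 on the log2 scale (SE 0.24, adjusted p = 0.00775), or by 1.28 without SI BRAF on replicate 1 (adjusted p = 0.00653). The groups differed when off, with 7.87 and 9.81 CPM in SI BRAF against 25.0 and 26.3 CPM in SI BRAFp53, whereas the on libraries were at 73.2 and 83.7 CPM against 92.1 and 104.7 CPM. Spry1 had a larger difference in the other direction, 1.58 ± 0.49, that did not pass the test (adjusted p = 0.0694) and was called by DESeq2 (0.0195) and limma-voom (0.0472). Dusp5 was called (-0.77, adjusted p = 0.0285) only once SI BRAF on replicate 1 was left out. The off libraries of each culture enter only their own response.

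Between tissues, the BRAF response differed for 3 members, where 10.7% of all genes were called. Dusp6 rose less in COL than in SI, by a difference of -1.48 ± 0.27 (adjusted p = 0.00130; -1.57 without SI BRAF on replicate 1, adjusted p = 0.00192). Dusp4 rose more in COL, by 1.24 ± 0.28 (adjusted p = 0.00735; 1.38 without that library, adjusted p = 0.0121). Spry4 also rose more in COL, by 1.90 ± 0.52 (adjusted p = 0.0242). The Spry4 difference was 1.77 without SI BRAF on replicate 1 (adjusted p = 0.0799), and its call was likewise lost without COL BRAF on replicate 1 (0.0735), COL BRAF off replicate 1 (0.0508) or 2 (0.0879) or SI BRAF off replicate 2 (0.127). For the BRAFp53 response, 0 of 10 members differed between tissues by any of the 3 tools, where edgeR called 3.52% of all genes. Spred1 and Spred2 had an unadjusted p under 0.05 by edgeR, as had 3504 of 19673 genes. The 95% interval of the BRAFp53 difference was -0.38 to 0.72 for Dusp6, -0.31 to 0.89 for Dusp4 and -0.64 to 1.52 for Spry4. For Errfi1 the intervals were -0.77 to 0.34 in BRAF and -0.90 to 0.22 in BRAFp53.

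**Figure D3:**
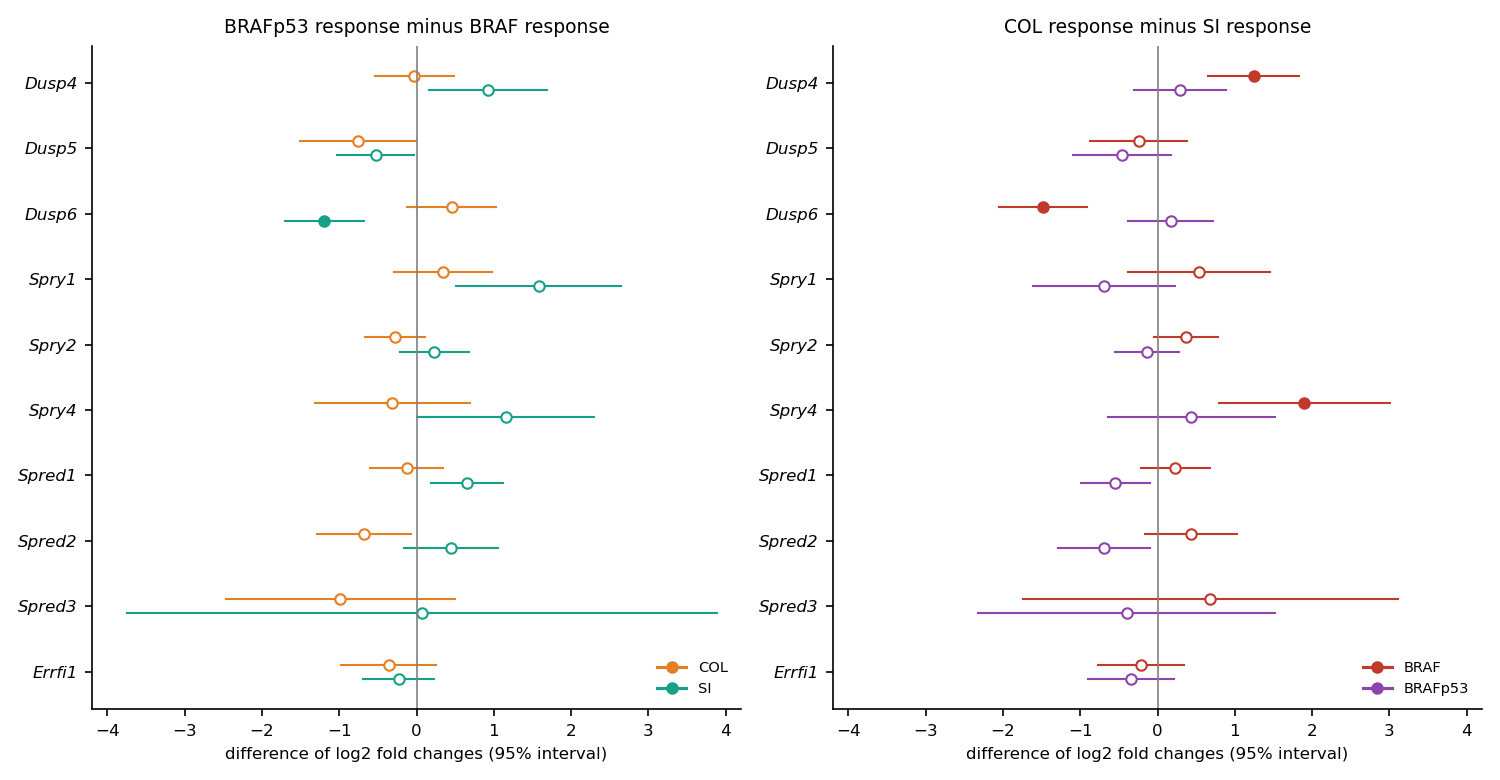
Differences of log2 fold changes (with 95% interval) between genotypes, left, and between tissues, right; filled points have an adjusted p under 0.05. The filled points are Dusp6 for SI on the left (-1.20) and Dusp4 (1.24), Dusp6 (-1.48) and Spry4 (1.90) for BRAF on the right.

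Off organoids were compared between tissues with the 2 off libraries of each culture summed, 3 cultures against 3. Of the 10 members 3 differed, where 29.6% of all genes were called, so the count is near the share over all genes. Dusp5 was lower in COL, at 8.31, 6.22 and 3.63 CPM in the BRAF, BRAFp53 and p53 cultures against 12.9, 15.3 and 18.1 CPM in SI. Dusp6 was higher in COL, at 37.4, 34.3 and 73.9 CPM against 8.84, 25.7 and 14.1 CPM, and so was Errfi1, at 34.3, 33.0 and 51.1 CPM against 25.4, 27.1 and 21.8 CPM. For each of the 3 genes the cultures of the tissues did not overlap. The log2 difference, COL minus SI, was -1.32 ± 0.32 for Dusp5 (adjusted p = 0.0208), 1.61 ± 0.45 for Dusp6 (adjusted p = 0.0358) and 0.70 ± 0.21 for Errfi1 (adjusted p = 0.0415). With 1 culture left out, and so with fewer cultures, calls were lost while the direction stayed. That of Errfi1 was lost without any one of the 6 cultures (log2 0.43 without COL p53 and 0.61 to 0.82 without the others, adjusted p = 0.0526 to 0.156) and under another scaling, RLE (0.0548). That of Dusp6 was lost without COL p53 (log2 1.13, adjusted p = 0.0954), COL BRAFp53 (1.81, 0.0556), SI BRAF (1.31, 0.0786) or SI p53 (1.51, 0.122), and that of Dusp5 without COL BRAFp53 (-1.34, 0.0612), SI p53 (-1.19, 0.0800) or SI BRAFp53 (-1.34, 0.0627). DESeq2 called 6 members, where it called 6522 of 17789 genes, and limma-voom 5, where it called 5547. Spry1 (log2 0.88), Spry4 (1.04) and Spred3 were the further members with an unadjusted p under 0.05 by edgeR, as had 7526 of 17789 genes. The fitted Spred3 difference is no measure of size, because the SI BRAF off libraries had 2 and 5 counts, and it ran from 1.66 to 2.90 over the alternatives. The off libraries compared here are also the baseline of the responses described above. Medium and day of RNA cannot be told apart from tissue here, and the SI p53 and SI BRAFp53 cultures also differ from the COL cultures in Ddx3y and Xist.

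Across the 12 groups the members took different orders, described here by group means of 2 libraries with their SD. Dusp5 ran from 3.63 ± 0.017 CPM in COL p53 off to 59.0 ± 15 CPM in SI BRAF on, a 16.3-fold span, and Dusp6 from 8.84 ± 1.4 CPM in SI BRAF off to 148 ± 7.4 CPM in COL BRAFp53 on, a 16.7-fold span. Spry4 spanned 13.8-fold, from 1.20 ± 0.42 CPM in SI p53 on to 16.6 ± 1.9 CPM in COL BRAF on. Dusp4 spanned 8.71-fold, Spry1 6.17-fold and Errfi1 4.23-fold, each with an induced BRAF-bearing COL group at the top. Spred2 (2.02-fold) and Spred1 (1.96-fold) spanned little more than Spry2, and the highest group mean of Spred1 was that of COL BRAFp53 off, at 32.4 ± 1.8 CPM. Spred3 had the widest ratio, 49.5-fold (0.0668 to 3.30 CPM), which rests on SI BRAF off libraries of 2 and 5 counts. Neighbours in the order had overlapping libraries in 5 (Dusp6) to 10 (Spred2) of 11 pairs. In COL p53 on and off libraries Spry4 was at 5.26 ± 1.3 and 3.91 ± 0.079 CPM, Spry1 at 8.41 ± 1.4 and 6.05 ± 0.46 CPM and Spred1 at 19.7 ± 0.59 and 16.6 ± 2.8 CPM. In SI p53 on and off libraries Spry4 was at 1.20 ± 0.42 and 1.35 ± 0.017 CPM, Spry1 at 3.60 ± 2.0 and 4.61 ± 0.22 CPM and Spred2 at 8.67 ± 0.53 and 7.87 ± 1.2 CPM. COL p53 off had the highest mean of the 6 off groups for Dusp6 (73.9 ± 1.5 CPM) and Errfi1 (51.1 ± 7.2 CPM).

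Levels between genes were compared per kb of exon, in the off cultures. By the mean of 3 cultures Spry2 was highest in both tissues, at 17.4 CPM per kb in COL and 16.5 CPM per kb in SI, although in the COL p53 culture Dusp6 was at 23.6 CPM per kb and Spry2 at 15.9 CPM per kb. In COL Dusp6 (15.5) and Errfi1 (11.02 CPM per kb) followed, and in SI Errfi1 (6.92) and Dusp5 (6.22 CPM per kb). Spry4 (0.581 and 0.286 CPM per kb in COL and SI) and Spred3 (0.150 and 0.0356 CPM per kb) were lowest.

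**Figure D4:**
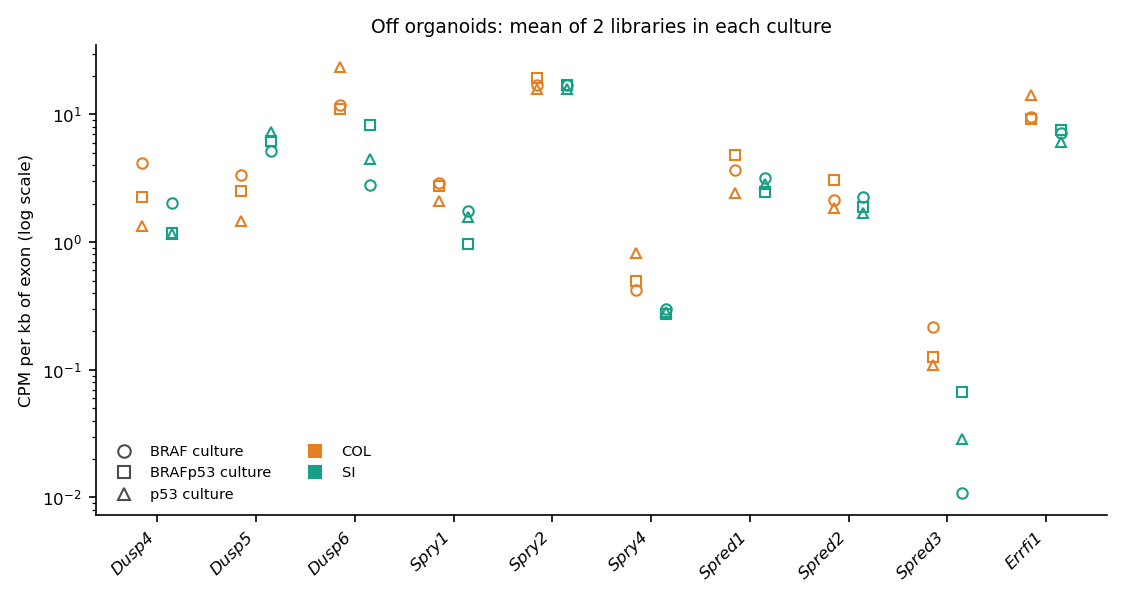
Off level of each regulator per kb of exon (CPM per kb, log scale), 1 point for each culture, in COL (orange) and SI (green). Spry2 has the highest mean in both tissues, at 17.4 and 16.5 CPM per kb, and Dusp5 is the member whose SI points all lie above the COL points.

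Over all 24 libraries, with the mean of each tissue taken off, the genes with patterns most like Dusp6 among 12207 were Capg (Pearson r = 0.967), Fbxw9 (0.952), Nid1 (0.948), Tnfrsf23 (0.948) and S100a13 (0.946). Among the members, Errfi1 (0.896) and Spry4 (0.790) were most alike, then Dusp5 (0.669) and Spry1 (0.536), and Spry2 (0.213) and Spred1 (0.079) least. Within COL the r of Dusp5 to Dusp6 was 0.429 and within SI it was 0.917. The points share library depth and 6 cultures, and no p is attached to these values.

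The other genes of the pathway were read from 4 lists, also chosen with earlier results of these data known. Of 6 tested MAP kinase phosphatases outside the set, 4 rose in COL BRAF, and 3 rose in each of COL BRAFp53, SI BRAF and SI BRAFp53, beside 10.3%, 9.95%, 17.5% and 6.98% of all genes called higher in these comparisons. None of the 6 fell, beside 9.61%, 7.76%, 14.2% and 4.53% of all genes called lower. Dusp10, which acts mainly on stress-activated kinases, rose from 0.612 to 3.79 CPM (group means) in SI BRAF (log2 2.58 ± 0.44, adjusted p = 0.000593), and Dusp8 from 6.21 to 27.8 CPM (2.11 ± 0.25, adjusted p = 3.85e-05). These values were 2.62 and 2.34 without on replicate 1. Dusp1, an immediate early phosphatase, rose 3.10-fold in SI BRAF (log2 1.63, or 2.04 without that library), and Dusp16 rose 1.39-fold in COL BRAF. Dusp16 did not pass the test in the other comparisons, with log2 values of -0.37 in COL BRAFp53, -0.14 in SI BRAF and -0.37 in SI BRAFp53. Their median log2 fold change was 0.87 in COL BRAF, 0.51 in COL BRAFp53, 0.75 in SI BRAF (0.93 without on replicate 1) and 0.9999 in SI BRAFp53.

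The 12 tested attenuators of other kinds did not share a direction: 2 rose and 1 fell in COL BRAF, 1 rose and 2 fell in COL BRAFp53, 2 rose and 4 fell in SI BRAF, and 2 rose and 1 fell in SI BRAFp53, with medians between -0.22 and 0.05. Of all genes, 10.3% were called higher and 9.61% lower in COL BRAF, 9.95% and 7.76% in COL BRAFp53, 17.5% and 14.2% in SI BRAF, and 6.98% and 4.53% in SI BRAFp53. Several of these counts are therefore near the shares over all genes. Without SI BRAF on replicate 1, 2 rose and 3 fell in SI BRAF, with a median of 0.076 against 0.02 with it. Sh3kbp1, an adaptor in receptor endocytosis, rose from 6.44 to 25.3 CPM in COL BRAF (log2 1.97 ± 0.22, adjusted p = 0.000152). Il17rd, also called Sef, an inhibitor of FGF signalling, fell in SI BRAF from 2.47 to 0.533 CPM (-2.19 ± 0.56, adjusted p = 0.00955; -3.83 without on replicate 1). Lrig1, which restrains ERBB receptors and marks stem cells, fell from 56.5 to 27.5 CPM there (-1.08 ± 0.18, adjusted p = 0.000441; -1.38 without that library). Socs3, an inhibitor of cytokine receptors, rose 1.78-fold in SI BRAF (log2 0.83, adjusted p = 0.0444; 1.18 without that library).

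Of 22 tested genes in the transcriptional output of ERK, 15 rose in COL BRAF and 13 in COL BRAFp53, and 11 rose in SI BRAFp53. The shares of all genes called higher were 10.3%, 9.95% and 6.98%. In SI BRAF 8 rose and 5 fell, or 7 and 4 without on replicate 1, where 17.5% of all genes were called higher and 14.2% lower. The median log2 fold change was 1.46 in COL BRAF, 1.16 in COL BRAFp53, 0.91 in SI BRAFp53 and 0.31 in SI BRAF (0.52 without on replicate 1). The EGFR ligand Ereg rose from 0.881 to 11.6 CPM in COL BRAF (3.69 ± 0.43, adjusted p = 0.000186), the AP-1 subunit Fosl1 from 2.14 to 21.5 CPM (3.32 ± 0.25, adjusted p = 1.10e-05) and the membrane protein Emp1 from 85.2 to 678 CPM (2.99 ± 0.21, adjusted p = 7.26e-06). Areg, another EGFR ligand, rose from 10.2 to 62.5 CPM in SI BRAF (2.57 ± 0.20, adjusted p = 1.05e-06; 2.85 without on replicate 1). The 5 that fell in SI BRAF were Ccnd1 (-0.65), Egr1 (-0.64), Epha4 (-1.09), Ier2 (-0.96) and Myc (-0.79), a set named after their values were seen. Without SI BRAF on replicate 1, Ier2 was not called (-0.66, adjusted p = 0.0883).

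Of 20 genes of the cascade itself, 7 rose and 2 fell in COL BRAF, 5 rose and 2 fell in COL BRAFp53, 7 rose and 3 fell in SI BRAF (8 and 4 without on replicate 1) and 4 rose and 1 fell in SI BRAFp53, with medians of 0.35, 0.14, 0.19 (0.22 without SI BRAF on replicate 1) and 0.17. Of all genes, 10.3%, 9.95%, 17.5% and 6.98% were called higher and 9.61%, 7.76%, 14.2% and 4.53% lower, so the counts that fell are near the shares over all genes. The receptor Fgfr2 fell in COL BRAF from 38.4 to 12.97 CPM (-1.57 ± 0.21, adjusted p = 0.000407) and Fgfr3 from 12.4 to 5.04 CPM (-1.31 ± 0.20, adjusted p = 0.00105). Hras rose there 2.22-fold (adjusted p = 0.000219) and the scaffold Ksr1 1.83-fold (adjusted p = 0.0386).

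**Figure D5:**
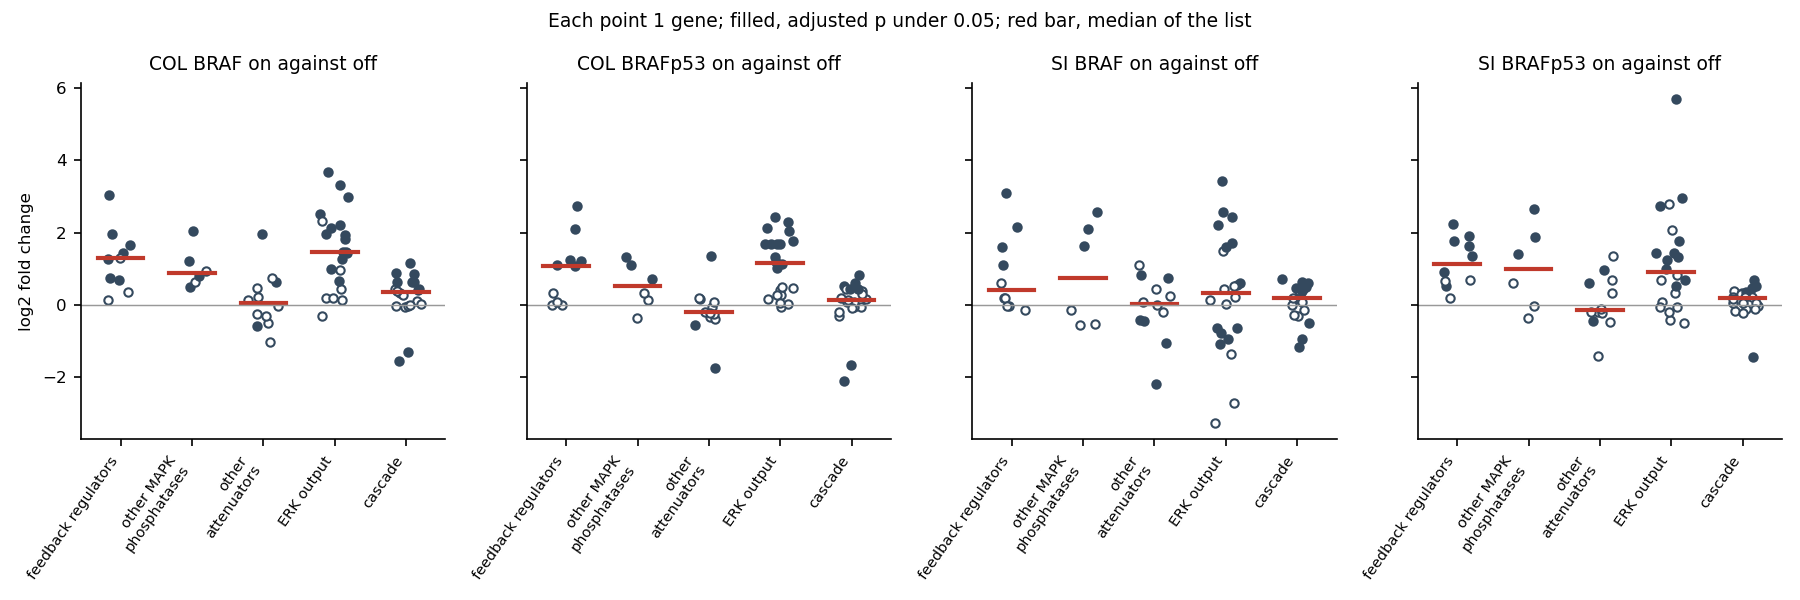
Log2 fold change between on and off libraries of each tested gene in 5 lists, in the 4 BRAF-bearing comparisons; filled points have an adjusted p under 0.05 and red bars mark medians. The ERK output list is mostly above 0 in COL (medians 1.46 and 1.16) and lies on both sides of 0 in SI BRAF, where 8 genes rose and 5 fell.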

How the data were processed

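RNA-seq of 24 organoid libraries was used. The authors deposited whole-number counts per Ensembl gene, 1 table per tissue, from paired-end HiSeq4000 reads trimmed with Trimmomatic 0.36 and aligned with STAR 2.5.2b. The methods name mm10, whereas the submitters' processing notes list mm9 as well. Annotation release and strand setting are not given in the sources used here. Symbols, positions and exon lengths came from GENCODE M21 (GRCm38), which matched 45143 of 45706 identifiers.

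Deposited counts were filtered with filterByExpr, scaled by TMM and tested with edgeR 4.0.16 (quasi-likelihood, Benjamini-Hochberg over all genes), per tissue for on against off, over 24 libraries for differences between tissues, and over 6 summed cultures for off organoids. Printed CPM use TMM over all 24 libraries. R 4.3.3, limma 3.58.1 and DESeq2 1.42.0 served the alternatives. Where 1 library of a group was left out, the lone library was taken to vary like the other groups. The procedure was tested on simulated data. Replicate libraries differed by more than counting noise. At these depths 3 counts correspond to 0.0384 to 0.0676 CPM. Members and lists were chosen with earlier results of these data known. All 10 members were named; from each other list, up to 4 genes with the largest log2 fold change among those called in COL BRAF or SI BRAF with separate on and off libraries; and the 5 genes most like Dusp6 (mean of at least 1 CPM, log2 of CPM plus 0.5).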

Additional observations from a re-analysis of the deposited data

Results flagged for a closer look

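Of the differences between responses, 4 passed edgeR's quasi-likelihood test with Benjamini-Hochberg adjustment, and each was picked out because the on against off change differed between 2 cultures. The BRAF response of Dusp4 was larger in COL than in SI by 1.24 on the log2 scale (adjusted p = 0.00735), where the groups lay apart in COL and overlapped in SI. That of Spry4 was larger in COL by 1.90 (adjusted p = 0.0242), with on libraries above off libraries in both tissues, and lost its call when any of 5 of the 8 libraries was left out, as given above. That of Dusp6 differed by -1.48, COL minus SI (adjusted p = 0.00130), and in SI the BRAFp53 response of Dusp6 differed from the BRAF response by -1.20 (adjusted p = 0.00775), again with on libraries above off libraries in every culture. SI BRAF organoids enter all 4 values, and their off level of Dusp6, 8.84 CPM, was the lowest of the 12 groups. Tissue, medium, 4-HT dose, day and donor cannot be told apart in the first 3 values. Genotype, donor and the difference in Ddx3y and Xist cannot be told apart in the last. Summed markers of several cell types and the mitochondrial and ribosomal shares of counts moved between the same libraries, as given above, and their part was not tested.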

How the results depend on the processing

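Of 31 called results on members, 20 kept direction and call under every alternative run, and no called result changed sign. Among 1332 alternative values for 110 results on members, 1199 kept direction and call, 43 lost a call (37 of them with 1 library or culture left out), 36 gained one and 54 changed sign, none of them called. The number of members called moved from 0 to 1 without a filter on low counts in COL p53 and in SI p53. For the SI difference between BRAFp53 and BRAF responses it moved from 1 to 2 (no filter, at least 10 counts in every library, limma-voom, replicate block) or 3 (DESeq2), and was 1 to 2 with a library left out. Over all genes, this SI difference had 2044 calls of 26898 without a filter, 1610 of 12447 with at least 10 counts, 1436 of 16856 with limma-voom, 1082 with the block and 2108 with DESeq2. For off organoids the number of members called moved from 3 to 2 (RLE, 5233 of 17789 genes called), 5 (at least 10 counts in every library, 4515 of 14520, and limma-voom, 5547 of 17789), 6 (DESeq2, 6522 of 17789) or 7 (12 off libraries kept apart, 8234 of 15768). It was 0 to 3 with a culture left out. In SI BRAFp53 it was 4 to 6 instead of 7 with a library left out, 4 without off replicate 2. The cause was not tested.

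Replicate numbers did not pair the libraries: deviations of same-numbered on and off libraries correlated at -0.0581 to 0.0809. With the number as a replicate block, Spry4 lost its call in SI BRAF (adjusted p = 0.0554) and in the BRAF difference between tissues (0.0512), Spred1 lost it in SI BRAFp53 (0.0786), and Spred2 in SI BRAFp53 (0.0394) and Spry1 in the SI difference (0.0393) gained one. Over all genes the block gave 15 calls against 27 in COL p53 and 17 against 172 in the COL difference.

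Some log2 values changed sign, none of them called in the reported fit. Spred1 in COL BRAFp53 was 0.011 with RLE, 0.012 without a filter, 0.011 with DESeq2, 0.0016 with limma-voom and 0.0012 with its 4 libraries alone, and Spred2 there was 0.0080, 0.0088, 0.0081 and 0.0057 under the first 4. Dusp4 was 0.0027 in the COL difference without a filter, and in SI BRAF 0.012 with RLE, 0.013 with DESeq2 and 0.0032 with limma-voom. Spred3 in SI p53 was 0.23 with limma-voom and 0.17 with the replicate block. With 1 library left out, ranges across 0 were, for Dusp4, -0.16 to 0.12 (COL difference), -0.18 to 0.13 (SI BRAF) and -0.14 to 0.44 (SI p53); for Dusp5, -0.48 to 0.051 (BRAF between tissues) and -0.11 to 0.60 (COL p53); for Errfi1, -0.49 to 0.0074 (COL p53); for Spred1, -0.035 to 0.30 (COL BRAF), -0.062 to 0.067 (COL BRAFp53), -0.30 to 0.037 (COL difference) and -0.013 to 0.29 (SI p53); for Spred2, -0.15 to 0.14 (COL BRAFp53), -0.011 to 0.33 (COL p53) and -0.045 to 0.30 (SI p53); for Spred3, -0.24 to 2.85 (BRAF between tissues), -1.23 to 0.18 (BRAFp53 between tissues), -0.52 to 0.85 (COL BRAFp53), -1.55 to 1.52 (SI BRAF), -0.83 to 2.24 (SI difference) and -0.81 to 1.32 (SI p53); for Spry1, -1.07 to 0.092 (SI p53); for Spry2, -0.26 to 0.0056 (BRAFp53 between tissues), -0.040 to 0.21 (COL BRAFp53), -0.14 to 0.031 (SI BRAF) and -0.12 to 0.26 (SI p53); and for Spry4, -0.23 to 1.27 (BRAFp53 between tissues), -0.80 to 0.43 (COL difference) and -0.60 to 0.14 (SI p53).

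Counts over all genes moved more. COL p53 had 27 calls, 569 without a filter, 324 with DESeq2, 14 with its 4 libraries alone and 0 to 56 with a library left out. SI p53 had 0, 155 without a filter, 65 with DESeq2 and 17 with its 4 libraries alone. The COL difference had 172, 1312 without a filter, 391 with at least 10 counts, 1364 with DESeq2 and 0 to 279 with a library left out, and the SI difference 1383, 2108 with DESeq2 and 597 to 2128. The BRAFp53 difference between tissues had 693 (274 higher, 419 lower), 1548 without a filter, 1580 with DESeq2 (861 higher, 719 lower) and 235 to 723, and off organoids 5270, 8234 with libraries kept apart and 2479 to 5381. With a library left out, COL BRAF had 1961 to 2489 calls instead of 3776, COL BRAFp53 1699 to 2399 instead of 3360, SI BRAFp53 887 to 1333 instead of 1941, SI BRAF 3573 to 5343 instead of 5345 and the BRAF difference between tissues 1202 to 1833 instead of 2108. Depth limited Spred3 in SI, at 1 to 43 counts per library, so its fitted values in SI depend on the prior count and bound no change.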
